A study of Mus musculus with 6 samples.

Results

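The classical and related cadherins (Cdh genes) and the nonclustered protocadherins (Pcdh genes) were followed across the cells of the mouse main olfactory epithelium. Members were the genes whose symbol is Cdh followed by a number, or Pcdh followed by a number with or without an x. This gave 35 genes, 23 Cdh and 12 Pcdh, of the 24564 genes listed in every library. They fell into 6 subgroups by textbook class. The type I cadherins were Cdh1, Cdh2, Cdh3, Cdh4 and Cdh15, and the 13 type II cadherins were Cdh5, Cdh6, Cdh7, Cdh8, Cdh9, Cdh10, Cdh11, Cdh12, Cdh18, Cdh19, Cdh20, Cdh22 and Cdh24. The 4 delta-1 protocadherins were Pcdh1, Pcdh7, Pcdh9 and Pcdh11x, and the 5 delta-2 protocadherins were Pcdh8, Pcdh10, Pcdh17, Pcdh18 and Pcdh19. The other cadherins were Cdh13, Cdh16, Cdh17, Cdh23 and Cdh26, and the other protocadherins were Pcdh12, Pcdh15 and Pcdh20.

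Cadherins are calcium-dependent adhesion proteins that bind matching cadherins on neighboring cells through their extracellular repeats. Classical cadherins hold the actin cytoskeleton through catenins, and epithelial sheets, neurons and vessel walls are known for different ones (Cdh1 or E-cadherin, Cdh2 or N-cadherin and Cdh5 or VE-cadherin). The nonclustered protocadherins have cytoplasmic tails of other kinds and are known for roles in axon growth and sorting in the developing nervous system, the olfactory system included, where axons of neurons with the same olfactory receptor meet in the same glomeruli of the olfactory bulb.

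The 6 single-cell libraries, 1 per mouse as far as the labels tell, came from papain-dissociated main olfactory epithelium. The study's design text speaks of sorted cells, while its single-cell methods describe no sort. The study asked what the heterochromatin protein HP1β does in olfactory sensory neurons (OSNs). The 2 swap mice carried the Cbx*/* allele and a Cre, so that Cbx1 (HP1β) is replaced by Cbx5 (HP1α) under the Cbx1 promoter once Cre has acted. Control replicate 1 was labelled WT with the Cre and control replicate 2 Cbx*/*, with no Cre named, so neither control genotype was repeated. The gg8tTA control carried gg8-tTA, a driver active in immature olfactory neurons, and the tetOP2 mouse carried gg8-tTA with tetOP2iresGFP, which forces expression of the P2 receptor. Each of these was 1 library. Ages were not given for these libraries.

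All 6 libraries were labelled as OSN, but they held many cell types, and cells were assigned by marker gates of genes that are no members. Of 2510 to 4884 analyzed cells per library, 662 to 1217 were mature OSNs (mOSNs), taken as cells with at least 10 UMIs of Omp and more Omp than Gap43. A UMI is 1 counted RNA molecule, and CPM is the UMIs of a gene per 1000000 UMIs summed over the cells of a type in a library. Check markers outside the gates were highest in the type they stand for in most cases, such as Cnga2 in mOSNs at a mean of 672 CPM and Krt15 in horizontal basal cells at 1329 CPM. The libraries held 32005196 to 63277934 UMIs. In mOSNs Cbx1 was at 0.972 and 3.34 CPM in the swap libraries against 80.2 and 156 CPM in the controls, and Cbx5 was at 74.4 and 88.7 against 19.4 and 28.2 CPM, as the labels give it. Xist was at 1228 CPM in swap replicate 1, 1369 in the gg8tTA control and 1418 in tetOP2, with Ddx3y at 0 there, and at no more than 0.0637 CPM in both controls and swap replicate 2. The sexes were therefore mixed within the swap group but not within the controls, and this sits beside every value of the X-linked members Pcdh11x and Pcdh19. In sums over cells, fewer cells with a gene and less RNA per cell cannot be told apart.

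Members that climbed through the neuronal lineage are shown first by the sequence ahead of their transcription start. Pcdh10 and Cdh15 rose at each of the last 3 steps from precursor to mOSN, and Pcdh8 fell and then rose again at the last step. The 250 bases before the start of each, from RefSeq on GRCm38.p6, are written 5′ to 3′ on the strand of the gene, with every CG dinucleotide in capitals. The Pcdh10 window is chr3:45378148-45378397 on the plus strand, the Cdh15 window chr8:122848124-122848373 on the plus strand, and the Pcdh8 window chr14:79771313-79771562 on the minus strand.
Pcdh10: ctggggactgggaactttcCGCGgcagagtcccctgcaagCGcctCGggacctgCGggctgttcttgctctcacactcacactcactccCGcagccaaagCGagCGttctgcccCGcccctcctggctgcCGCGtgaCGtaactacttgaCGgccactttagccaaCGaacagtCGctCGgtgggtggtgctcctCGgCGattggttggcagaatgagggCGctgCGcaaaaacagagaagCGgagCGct
Cdh15: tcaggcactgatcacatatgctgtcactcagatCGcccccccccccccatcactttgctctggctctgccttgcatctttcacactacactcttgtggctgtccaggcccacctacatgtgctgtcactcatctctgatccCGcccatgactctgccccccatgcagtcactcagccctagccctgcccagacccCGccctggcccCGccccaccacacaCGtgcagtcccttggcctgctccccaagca
Pcdh8: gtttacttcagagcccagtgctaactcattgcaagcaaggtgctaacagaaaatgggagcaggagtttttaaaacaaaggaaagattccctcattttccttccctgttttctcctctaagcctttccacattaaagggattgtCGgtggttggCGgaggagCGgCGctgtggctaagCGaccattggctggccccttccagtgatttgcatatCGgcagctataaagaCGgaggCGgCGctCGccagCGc

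The Pcdh10 window held 22 CG dinucleotides and 63.2% G or C, and 14.6% of 27025 RefSeq windows of this length held as many. Cdh15 had 5 CG dinucleotides at 62.0% G or C, close to the median of 6 over all windows, and Pcdh8 had 11 at 51.2%. The Pcdh10 window overlaps an exon of the noncoding gene 2610316D01Rik. Of 3 motifs searched on both strands, none was in these 3 windows: CCCNNGGG, an Ebf site, is in 11.7% of all windows, TAATTA, a homeodomain core such as that of Lhx2, in 4.9%, and CAGATG, an E-box of the kind bound by Neurod1, in 14.5%. These counts describe letters in a window only.

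Each type was first compared with the mean of the other types, with the library as a block, by the quasi-likelihood test of edgeR, adjusted after Benjamini and Hochberg over 14208 genes. A gene was called at an adjusted p under 0.05 and an absolute log2 fold change above 0.58. Of the 35 members, 21 passed the filter on low counts, and each of these was called higher in at least 1 of the 15 types. The share of all genes called higher in at least 1 type was not counted, so this says nothing particular about the members. The 14 members that did not pass were Cdh5, Cdh6, Cdh7, Cdh8, Cdh9, Cdh12, Cdh13, Cdh16, Cdh17, Cdh18, Cdh22, Cdh24, Pcdh12 and Pcdh20. Cdh16, a kidney cadherin, had 1 UMI in all libraries, and none in any of the 15 types. In neurons and the progenitors before them, the members called higher numbered 14 in early immature OSNs, against 30.2% of all genes tested, 11 in late immature OSNs (29.2%), 13 in mOSNs (33.9%), 6 in immediate neuronal precursors (26.0%) and 7 in globose basal cells (21.1%). In horizontal basal, other epithelial, glial and connective cells they numbered 12 in ensheathing glia (24.9%), 10 in sustentacular cells (25.0%), 9 in horizontal basal cells (25.4%), 8 in fibroblasts (27.6%), 4 in Bowman gland cells (25.6%) and 3 in Ascl3 microvillar cells (20.1%). In blood lineages they numbered 2 in erythroid cells (23.7%), 2 in neutrophils (25.4%) and 0 in B cells (24.4%) and macrophages (21.7%). Fitted fold changes of this contrast depend on types at 0, so levels are given below, and some calls stand on very low levels: the erythroid calls were Cdh20 at a mean of 0.260 CPM and Cdh10 at 0.187 CPM, and the Cdh23 call in neutrophils stood at 0.472 CPM. The 14 of early immature OSNs also hold 3 such calls, Cdh10 at 0.254 CPM, Cdh20 at 0.199 CPM and Cdh23 at 0.507 CPM. Calls under 1 CPM were made as well for Cdh23 in precursors, Cdh10 and Cdh23 in fibroblasts and Cdh19 in gland cells.

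**Figure D1:**
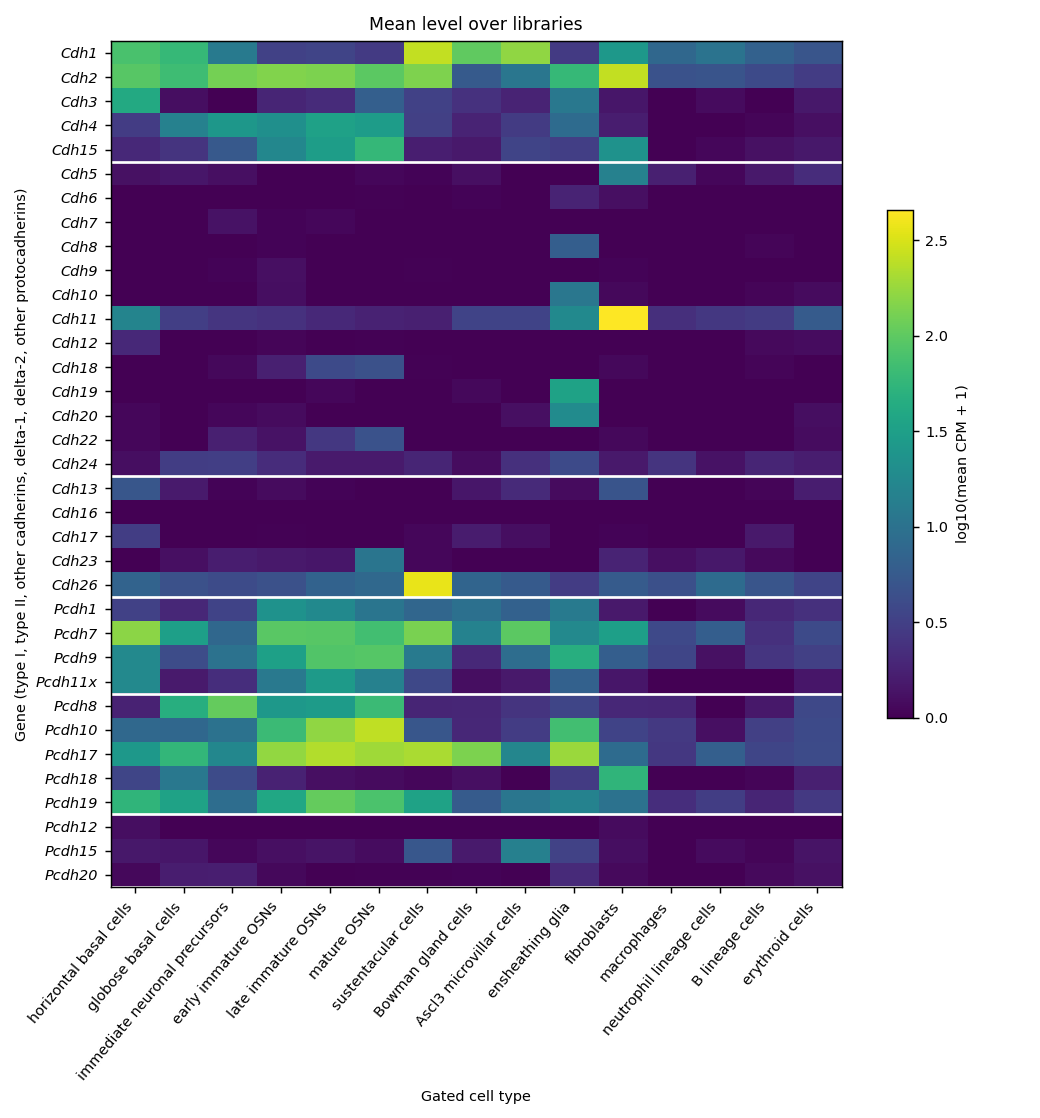
Heat map of the 35 members (vertical axis, by subgroup between white lines) in 15 gated cell types (horizontal axis), colored by log10 of the mean CPM over libraries plus 1. Cdh11 stands out in fibroblasts (mean 456 CPM), Cdh26 in sustentacular cells (375 CPM), the type II members Cdh8, Cdh10, Cdh19 and Cdh20 in glia, and Pcdh10 in mOSNs (255 CPM).

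Sustentacular cells, the glia-like supporting cells of the epithelium, held Cdh26 and Cdh1 together with members shared with other types. Cdh26, a cadherin known from epithelia, was at 296 CPM in the lowest of the 6 libraries, 363 at the median and 471 in the highest, and no other of the 15 types had a mean above 7.42 CPM. Cdh1, the E-cadherin of adherens junctions, was at 186, 237 and 389 CPM in the lowest, median and highest library of sustentacular cells. Pcdh17 there was at 148, 206 and 269 CPM, but its highest mean was in late immature OSNs, at 224 CPM. Cdh2 and Pcdh7 were called higher in sustentacular cells as well. Cdh2 had means of 154 CPM in the control and 145 CPM in the swap libraries, and Pcdh7 had a mean of 133 CPM. Cdh1 was also high in the other apical and glandular epithelial cells. In Ascl3 microvillar cells, a rare ion-transporting type, it was at 125, 164 and 228 CPM, and in gland cells at 60.1, 104 and 148 CPM over 5 libraries. Ascl3 microvillar cells also had Pcdh7 at 34.2, 102 and 185 CPM. Pcdh15, known for the tip links of inner ear hair cells, was at 3.90, 15.5 and 18.6 CPM in Ascl3 microvillar cells, and its next mean was 4.30 CPM, in sustentacular cells. Its tip-link partner Cdh23 was not paired with it there: its highest mean was 9.75 CPM in mOSNs. Gland cells had Pcdh17 at 36.7, 52.5 and 355 CPM, a spread so wide that its mean of 135 ± 137 CPM (SD, n = 5) says little, and Pcdh1 at 3.78, 9.75 and 12.1 CPM.

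Horizontal basal cells, the reserve stem cells that sit on the basal lamina, had Pcdh7 at 67.7, 132 and 295 CPM in the lowest, median and highest library, Cdh2 at 53.5, 76.6 and 193 CPM and Cdh1 at 58.3, 75.5 and 116 CPM. Cdh3, the P-cadherin of basal epithelia, was steadier there, at 33.6, 38.6 and 49.3 CPM, and its next mean was 10.5 CPM in glia. Globose basal cells, the dividing progenitors, had Cdh2 at 67.2 ± 17.1 CPM (SD, n = 5), Cdh1 at 35.5 to 91.2 and Pcdh17 at 56.7 ± 8.13 CPM. Cdh2 was not higher in them than in horizontal basal cells, where its mean was 92.1 CPM.

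Fibroblasts of the lamina propria were set apart from the other tested types by Cdh11 and Pcdh18. Cdh11, the mesenchymal OB-cadherin, was at 294, 465 and 658 CPM in the lowest, median and highest library. Its next mean among the tested types was 17.3 CPM, in glia. Cdh2 was at 198, 237 and 368 CPM and Pcdh18 at 27.2, 53.5 and 90.8 CPM. All 6 libraries were above the mean of every other tested type for Cdh11, and for Pcdh18 the next mean was 10.5 CPM in globose basal cells. Pericytes, too few for a test, shared both genes. Their pooled values were 78.0 CPM for Cdh11 and 82.6 CPM for Pcdh18, the latter above the fibroblast mean of 53.3 CPM. Fibroblasts also had Cdh1 at 4.21 to 61.7 CPM and the endothelial Cdh5 at 0.766 to 51.4 CPM, both highest in control replicate 2, which had 28 fibroblasts. The part of RNA from other cells in these values was not tested.

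Ensheathing glia, which wrap the olfactory axons, were the highest of the 15 types for 6 of the 13 type II members: Cdh6, Cdh8, Cdh10, Cdh19, Cdh20 and Cdh24. The share of all genes that were highest in glia was not counted. Cdh19, known from Schwann cells and their precursors, was at 0, 37.0 and 70.5 CPM in the lowest, median and highest library, with a next mean of 0.135 CPM in gland cells. It was low in the gg8tTA control and tetOP2 glia, at 0 and 8.20 CPM, and at 32.9 or more in the other 4 libraries. Cdh20 was at 9.58, 10.6 and 42.8 CPM and Cdh10 at 2.39, 8.76 and 22.7 CPM, each with a next mean under 0.3 CPM. Cdh8 had a mean of 5.23 CPM from 16 UMIs and did not pass the filter. Cdh24, at a mean of 2.98 CPM beside 2.13 in precursors, and Cdh6, at 0.843 CPM, did not pass it either. Cdh6 was at 14.9 CPM, from 4 UMIs, in pooled Trpm5 microvillar cells, which were too few for a test. By the naming rule the glial members were Pcdh17 at 79.0, 121 and 380 CPM, Pcdh10 at 38.6, 71.4 and 100 CPM and Cdh2 at 30.9, 45.4 and 136 CPM. These glial values varied by severalfold between libraries of 40 to 125 cells.

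Blood cells had low levels throughout. In B cells, macrophages, neutrophils and erythroid cells no member had a mean above 9.34 CPM, the value of Cdh1 in neutrophils. Cdh26 in neutrophils was listed at 0 in both controls, at 22.7 and 6.98 CPM in the swap libraries, and it was the only neutrophil call above 1 CPM. Cdh1 and Pcdh7 in neutrophils also had higher means in the swap libraries, 14.2 against 4.48 and 9.92 against 0.579 CPM. Cdh26, Cdh1 and Pcdh7 were all high in sustentacular cells, and the part of RNA from other cells in the neutrophil values was not tested.

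Types with too few cells for a test were pooled over libraries, and their exact Poisson intervals of 95% cover counting error only. The 91 endothelial cells had 746 UMIs of Cdh5, the cadherin of vessel walls that was kept out of the gate, or 791 CPM (735 to 849). They also had Pcdh12, a protocadherin known from endothelium, at 49.8 CPM (36.6 to 66.2), which was at 0 in 13 of the 15 tested types. The 93 respiratory ciliated cells had Cdh26 at 606 CPM (568 to 645). The 34 Trpm5 microvillar cells, a chemosensory type, had Cdh1 at 283 CPM (223 to 355) and Pcdh20 at 78.3 CPM (48.5 to 120), while Pcdh20 had a mean of no more than 1.05 CPM in the tested types. The 31 pericytes had Pcdh18 at 82.6 CPM (48.9 to 131), Pcdh19 at 78.0 CPM and Cdh11 at 78.0 CPM (45.4 to 125), each from 18 or 17 UMIs. Several members outside the tested set were thus high in rare types.

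The neuronal lineage was then read in 5 steps between 6 stages, from horizontal basal cells through globose basal cells, immediate neuronal precursors, early and late immature OSNs to mOSNs, in the same fit. Members rose most often on entering the immature OSN. There 9 of 21 rose, against 22.3% of all genes tested, and 3 fell, against 17.4%, with a member median of 1.04 on the log2 scale beside 0.06 over all genes. At the earlier steps 4 rose and 6 fell from horizontal to globose basal cells (18.8% and 24.9% of all genes) and 4 rose and 5 fell from globose basal cell to precursor (17.5% and 13.7%). From early to late immature OSN 6 rose and 0 fell (8.3% and 6.56%), and from late immature OSN to mOSN 5 rose and 1 fell (13.7% and 8.67%). The background of this last step depended on the size factors. It was 1946 genes higher and 1232 lower here, but 1487 and 1515 with RLE size factors, with 5 members higher and 2 lower. Log2 changes carry the size factors of the fit and CPM do not, so the 2 need not match. The member medians of these 4 steps were -0.60, 0.10, 0.24 and -0.14, beside -0.13, 0.07, -0.04 and 0.10 over all genes.

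**Figure D2:**
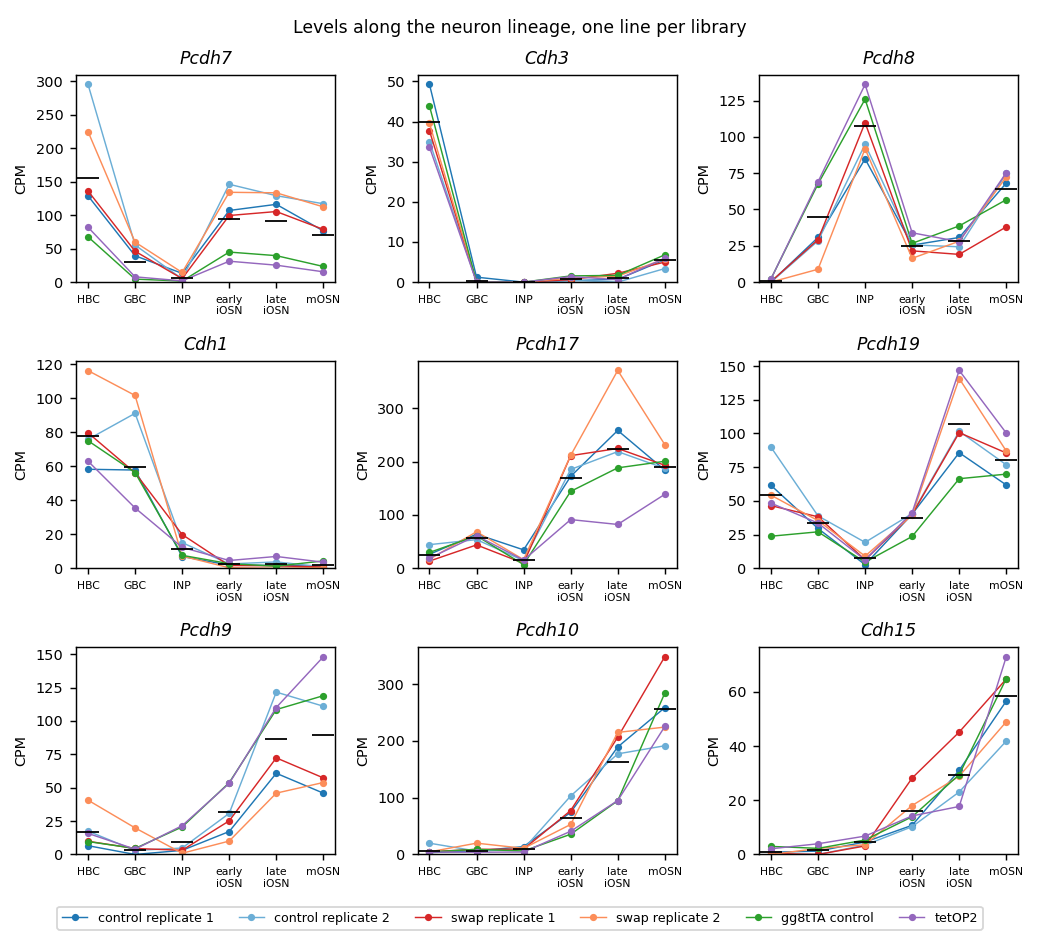
CPM of 9 members (vertical axes, from 0) over the 6 stages of the neuronal lineage (horizontal axes), with 1 colored line per library and black bars at the mean of the libraries with at least 20 cells of the stage. HBC, GBC and INP are horizontal basal cells, globose basal cells and immediate neuronal precursors. Pcdh10 and Cdh15 climb to the mOSN, Pcdh8 has maxima at the INP (107 CPM) and the mOSN (64.2 CPM), and the gg8tTA control and tetOP2 lines of Pcdh7 lie below the other 4.

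From horizontal to globose basal cells the delta-2 protocadherin Pcdh8, which is known to be induced by neuronal activity and to regulate Cdh2 at the cell surface, rose from a mean of 0.783 to 45.0 CPM (log2 change 5.43 ± 0.45 SE, adjusted p = 1.1e-16). Cdh4, the R-cadherin of retina and brain, rose from 2.00 to 13.6 CPM (adjusted p = 1.5e-05), and Pcdh18 from 2.63 to 10.5 CPM (adjusted p = 0.00476). The members typical of the basal cell went the other way. Cdh3 fell from 39.8 to 0.246 CPM (adjusted p = 2.2e-10), Pcdh7 from 156 to 30.6 CPM (log2 change -2.39 ± 0.27, adjusted p = 5.1e-12) and Pcdh11x from 17.0 to 0.545 CPM (adjusted p = 7.7e-08). Pcdh17 was called higher as well, and Pcdh9, Cdh11 and Pcdh19 lower. The Pcdh17 call (log2 change 1.06, adjusted p = 0.0297) was lost without control replicate 1, swap replicate 1 or swap replicate 2, with log2 changes of 1.05, 0.97 and 0.95, and also by DESeq2 and with RLE size factors (adjusted p = 0.0717 and 0.0541). Globose basal cells were the smallest stage, with 157 cells in all and 1 library under the minimum of 20 cells.

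From globose basal cell to precursor, Pcdh8 rose further, to 84.8, 102 and 136 CPM in the lowest, median and highest library (log2 change 1.37 ± 0.22, adjusted p = 4.3e-07). Cdh2 rose from 67.2 to 125 CPM (adjusted p = 8.2e-04) and Cdh4 from 13.6 to 24.8 CPM (adjusted p = 0.0251), while Cdh15 rose from 1.49 to 4.48 CPM. The calls of Cdh4 and Cdh15 were lost when control replicate 1, control replicate 2 or swap replicate 1 was left out, with log2 changes of 0.89, 0.94 and 0.58 for Cdh4 and 1.93, 1.70 and 1.53 for Cdh15. DESeq2 did not call Cdh15 either (adjusted p = 0.0524). The precursor was at the same time the lowest stage for Pcdh7, Pcdh17 and Pcdh19. Pcdh19 fell from 33.4 to 7.99 CPM (log2 change -2.17 ± 0.34, adjusted p = 1.9e-07), Pcdh7 from 30.6 to 6.81 CPM (adjusted p = 3.4e-07) and Cdh1 from 59.4 to 11.5 CPM (adjusted p = 6.4e-07). Pcdh17 and Pcdh18 fell as well, and the Pcdh18 call was lost without control replicate 1 (log2 change -1.79, adjusted p = 0.0549). The loss of Cdh1 went on in early immature OSNs, where it was at 2.28 CPM, below its means in the blood cells.

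From precursor to early immature OSN, when the axon grows out, all 4 delta-1 protocadherins rose. Pcdh7 went from 1.53, 5.02 and 14.4 CPM in the lowest, median and highest library to 31.2, 103 and 146 CPM (log2 change 3.62 ± 0.27, adjusted p = 3.6e-19), so the stages did not overlap. Pcdh1 rose from a mean of 2.44 to 21.5 CPM (adjusted p = 1.6e-12), Pcdh9 from 9.01 to 31.7 CPM and Pcdh11x by 3.13 on the log2 scale. Of the delta-2 group, Pcdh10 rose from 4.31, 9.52 and 13.8 CPM to 35.6, 63.5 and 103 CPM (log2 change 2.70 ± 0.27, adjusted p = 7.4e-14). Pcdh17 rose to 169 CPM and Pcdh19 to 37.5 CPM. Pcdh8 went the other way, from 107 to 24.9 CPM (log2 change -2.15 ± 0.18, adjusted p = 6.5e-17), and every early immature library was below the lowest precursor library. Cdh1 (adjusted p = 6.3e-05) and Pcdh18 (adjusted p = 0.00361) were the others to fall, Pcdh18 not without control replicate 1 (adjusted p = 0.0694).

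From early to late immature OSN, Pcdh19, whose human counterpart is known from an X-linked epilepsy, rose from a mean of 37.5 to 107 CPM (log2 change 1.48 ± 0.19, adjusted p = 2.7e-09). Pcdh10, known as OL-protocadherin from the olfactory system, rose from 64.0 to 163 CPM (1.34 ± 0.19, adjusted p = 1.2e-07) and Pcdh9 from 31.7 to 86.5 CPM (1.53 ± 0.23, adjusted p = 4.5e-07). Pcdh11x, Cdh15 and Cdh4 rose as well. Cdh4 was the weakest (0.66 ± 0.24, adjusted p = 0.0342), and its call was lost without control replicate 1, control replicate 2, the gg8tTA control or tetOP2, with log2 changes of 0.58 to 0.63, and also with gate minimums doubled and with no filter on low counts. No member was called lower, except 1 when the gg8tTA control was left out.

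At the last step, into the mOSN, Pcdh8 came back from 19.1, 28.0 and 38.7 CPM in the lowest, median and highest library to 38.0, 70.3 and 75.4 CPM (log2 change 1.44 ± 0.18, adjusted p = 4.1e-10). Cdh23, a long cadherin of hair-cell tip links, was at 0 to 1.27 CPM in late immature OSNs and at 6.18, 9.17 and 13.8 CPM in mOSNs (4.61 ± 0.58, adjusted p = 8.8e-09), so the stages did not overlap. Cdh15, known as M-cadherin from muscle, went from 17.7, 29.2 and 45.2 to 41.9, 60.7 and 73.0 CPM (1.22 ± 0.22, adjusted p = 5.1e-06), with a slight overlap of the stages. Pcdh10 rose again, from 163 to 255 CPM (0.95 ± 0.19, adjusted p = 2.4e-05, but 0.116 by DESeq2), and Cdh3 from 1.11 to 5.41 CPM. Pcdh11x was the member called lower, from 27.2 to 13.9 CPM (-0.75 ± 0.29, adjusted p = 0.0382). It was no longer called when any 1 library was left out, at log2 changes of -0.78 to -0.60, or with no filter on low counts.

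In mOSNs the levels of the members named by the rule were 191, 242 and 348 CPM for Pcdh10, 139, 190 and 232 CPM for Pcdh17 and 80.1, 86.9 and 123 CPM for Cdh2. Across the 6 stages, Pcdh10 had means of 6.84, 6.82, 9.01, 64.0, 163 and 255 CPM and Cdh15 of 1.04, 1.49, 4.48, 15.9, 29.2 and 58.3 CPM. Pcdh8 had means of 0.783, 45.0, 107, 24.9, 28.1 and 64.2 CPM, with maxima at the precursor and at the mature neuron. Pcdh7 ran 156, 30.6, 6.81, 93.8, 91.5 and 70.6 CPM, with its minimum at the precursor. 

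The partners of cadherins and the cadherin superfamily genes outside the symbol rule made a list of 32 genes, of which 29 were in the files and 25 passed the filter in this fit. The list holds catenins, proteases that cut cadherins, and Fat, Celsr, Dchs, calsyntenin (Clstn) and Cdhr genes. From horizontal to globose basal cells 2 rose and 12 fell, against 18.8% and 24.9% of all genes tested. From globose basal cell to precursor 10 rose and 2 fell (17.5% and 13.7%). From precursor to early immature OSN 6 rose and 7 fell (22.3% and 17.4%). Then 3 rose and 2 fell (8.3% and 6.56%), and at the last step 6 rose and 5 fell (13.7% and 8.67%). Clstn1, a calsyntenin of axonal transport, fell by 2.66 on the log2 scale at the first step (adjusted p = 4.6e-18) and rose by 2.62 on entering the immature OSN (adjusted p = 3.9e-21). Fat2 went from 89.8 to 0.901 CPM at the first step. Cdhr1, a photoreceptor cadherin, rose by 4.41 into the precursor (adjusted p = 1.9e-15) and by 1.07 into the late immature OSN. Clstn2 rose at each of the last 3 steps, by 1.72, 1.22 and 1.16, to a mean of 250 CPM in mOSNs. The catenin Jup (γ-catenin) was at 24.2 CPM in globose basal cells and 231 CPM in early immature OSNs, and it fell to 59.8 CPM in mOSNs, while Ctnnb1 (β-catenin) fell from 277 CPM in precursors to 152 CPM in early immature OSNs (adjusted p = 8.9e-11).

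Nqo1, an oxidoreductase known as a marker of olfactory neurons of the dorsal epithelium, was used next to divide the mOSNs. Cells with at least 2 Nqo1 UMIs were compared with cells with none, within each library. Nqo1-negative mOSNs had more Cdh3 and more Pcdh1, and no member was higher in the positive cells by the same thresholds. Of 15 members tested, 0 were higher in the positive cells by edgeR or DESeq2, against 1.57% of 10584 genes, and 2 were lower, against 2.77%. Cdh3 was at 5.04 to 10.5 CPM in the negative cells, with a median of 8.30, and at 0.198 to 1.56 CPM in the positive cells, with a median of 1.16 (log2 difference -3.16 ± 0.28 SE, adjusted p = 5.2e-07, quasi-likelihood test of edgeR). It was lower in the positive cells of 6 of 6 libraries, and the classes did not overlap. The log2 difference of Cdh3 was -5.20 and -4.67 in the controls and -2.49 and -2.63 in the swap libraries. In the gg8tTA control it was -3.34 and in tetOP2 -2.39. Pcdh1 was at 7.04 to 18.9 CPM in the negative cells, with a median of 13.0, and at 2.57 to 5.51 CPM in the positive cells, with a median of 3.37 (-1.88 ± 0.22, adjusted p = 1.4e-05), again lower in 6 of 6 libraries with no overlap. Its log2 difference was only -0.36 in the gg8tTA control (5.51 against 7.04 CPM) and -1.12 in tetOP2, beside -2.64 to -1.82 in the control and swap libraries. Both counts rest on few molecules: 18 UMIs of Cdh3 in all positive cells against 305 in the negative cells, and 76 of Pcdh1 against 539.

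**Figure D3:**
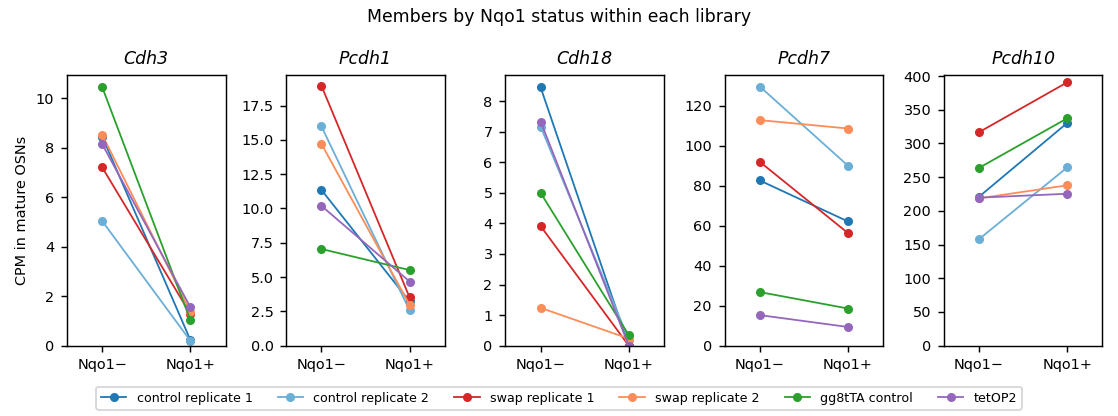
CPM of 5 members in Nqo1-negative and Nqo1-positive mOSNs (horizontal axes), with vertical axes from 0 and 1 line per library. All 6 lines fall for Cdh3 and for Pcdh1, Cdh18 is at or near 0 in the positive cells, and the lines of Pcdh7 and Pcdh10 are flatter.

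Other members differed by less than the size threshold while their adjusted p was under 0.05. Pcdh10 was higher in the positive cells by 0.40 ± 0.07 on the log2 scale, Pcdh9 by 0.38 ± 0.07 and Pcdh19 by 0.26 ± 0.06, and Pcdh7 was lower, at -0.40 ± 0.08, as were Cdh4 at -0.31 ± 0.08 and Cdh15 at -0.27 ± 0.06. The member median was 0.17 beside -0.00 over all genes. Cdh18, a type II cadherin of the brain, did not pass the filter on low counts. It had 230 UMIs in the negative cells and 3 in the positive cells, or pooled 5.74 and 0.138 CPM, a ratio of 41.6 with a 95% counting interval of 14.1 to 203. In the negative cells it was seen in all 6 libraries, at 1.24 to 8.45 CPM. Of the 20 catenin and superfamily genes tested, 0 were called in either direction by edgeR or DESeq2, and 5 and 2 had an unadjusted p under 0.05.

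The swap mice, in which Cbx5 replaces Cbx1, were compared with the controls in mOSNs. Loss of HP1β, gain of HP1α and the sex mix of the swap group cannot be told apart in it. No member was called. On simulated counts this comparison recovered 2 of 50 genes changed 2-fold and 25 of 50 changed 4-fold, so the lack of calls leaves such changes open. The simulated fit also made 14 calls among genes left unchanged. The real counts gave no call, so the real recovery may be lower than the simulated one. The comparison had 2 libraries a group, and no gene at all was called: 0 of 12423 genes, or 0.0%, with 303 at an unadjusted p under 0.05, of which 1 was a member, while DESeq2 called 181 genes and 0 members. Cbx1, the gene replaced by the swap, differed by -5.72 ± 0.68 on the log2 scale and was not called in mOSNs by edgeR (adjusted p = 0.104, quasi-likelihood test) but was by DESeq2 (adjusted p = 3.5e-20). The 3 members with the smallest p follow. Cdh18 was at 5.58 and 4.84 CPM in the controls and 2.31 and 0.834 in the swap libraries (log2 difference -1.79 ± 0.57, adjusted p = 1.00 by the quasi-likelihood test of edgeR). The Cdh18 groups did not overlap, but neither did those of Cdh1 and Cdh26, which were lower in the swap libraries too. The groups of Pcdh11x, Pcdh17 and Pcdh19, which were higher in the swap libraries, did not overlap either. The share of all genes without overlap was not counted, so this says nothing particular about Cdh18. In the gg8tTA control and tetOP2 libraries Cdh18 was at 2.84 and 5.17 CPM. Pcdh11x was at 11.4 and 15.0 CPM in the controls and 16.3 and 21.5 in the swap libraries (0.50 ± 0.29), and the sexes were mixed as given above. Cdh22 was at 1.63 and 1.27 CPM in the controls and 5.22 and 1.33 in the swap libraries (1.11 ± 0.73), and swap replicate 1 alone carried this difference. Without it the log2 difference was -0.13, and 1.80 without swap replicate 2. p-values measure only the spread between these libraries.

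**Figure D4:**
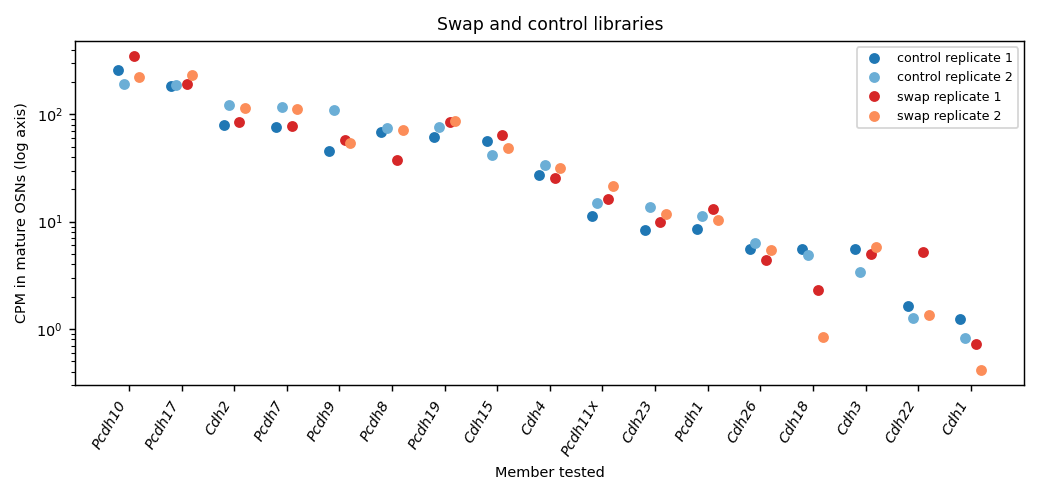
CPM in mOSNs (vertical axis, log scale) of the 17 members tested, with 1 point for each of the 2 control and 2 swap libraries. Control and swap points overlap for most members. For Cdh18 both swap points (2.31 and 0.834 CPM) are below both control points, as they are for Cdh1 and Cdh26. For Pcdh11x, Pcdh17 and Pcdh19 both swap points are above.

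The members with more RNA in mOSNs were within about their spread between replicates. Pcdh10 was at 258 and 191 CPM in the controls and 348 and 224 in the swap libraries (0.30 ± 0.31), Pcdh17 at 184 and 187 against 193 and 232 (0.17 ± 0.20) and Cdh2 at 80.1 and 123 against 84.9 and 116 (-0.03 ± 0.29). Pcdh8 was at 68.2 and 74.8 CPM in the controls and 38.0 and 72.4 in the swap libraries (-0.39 ± 0.36). Standard errors of this size leave differences of this size undetected. The X-linked Pcdh19 was at 61.8 and 76.8 CPM in the controls and 85.5 and 87.0 in the swap libraries (0.29 ± 0.19).

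In the other types that allowed the comparison, 0 members were called in any, by edgeR or by DESeq2. Of 77 tests of a member in a type, 5 had an unadjusted p under 0.05 by edgeR and 3 by DESeq2. The members tested and the share of all genes called were 13 in sustentacular cells (0.0%), 9 in horizontal basal cells (0.0%), 8 in precursors (0.0456%), 12 in early immature OSNs (0.00894%), 12 in late immature OSNs (0.182%), 8 in fibroblasts (0.011%), 8 in glia (0.0%), 4 in Ascl3 microvillar cells (0.0276%) and 3 in neutrophils (0.102%). No member passed the filter in B cells (0.0%), erythroid cells (0.0%) or macrophages (0.103%). Cbx1 differed by -6.67 to -4.46 on the log2 scale in the epithelial and neuronal types, and edgeR called it in precursors, early and late immature OSNs and Ascl3 microvillar cells. In glia it differed by only -0.42 ± 0.41 and in fibroblasts by -0.25 ± 0.34, and in the 4 blood types by -0.60 to -0.19, with no call, so in these types the labelled replacement was not seen. The neutrophil Cdh26 values given above had an adjusted p of 0.21. Within Nqo1-negative mOSNs 16 members were tested and within Nqo1-positive mOSNs 13, and 0 were called in both by either tool, against 0.42% and 0.338% of all genes called by edgeR. Cdh18 in the negative cells was the 1 member with an unadjusted p under 0.05. Of the catenin and superfamily list, 0 of 20 were called in mOSNs by either tool, and 0 had an unadjusted p under 0.05.

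Whether the Nqo1 difference itself changed with genotype was tested as an interaction over the 2 control and 2 swap libraries. Of 16 members tested 0 were called by edgeR, against 0.403% of 11656 genes, and 4 had an unadjusted p under 0.05, while 0 of 20 catenin and superfamily genes were called and 1 had such a p. Pcdh10 was nearest. Its positive-minus-negative log2 difference was 0.58 and 0.74 in the controls and 0.30 and 0.12 in the swap libraries, an interaction of -0.456 ± 0.075 (adjusted p = 0.0353), which did not reach the size threshold. The same difference was 0.35 in the gg8tTA control and 0.04 in tetOP2, each 1 library. What separates these values was not tested.

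The gg8tTA control and tetOP2 libraries, 1 each, differed from the other 4 in several members. Pcdh7 in mOSNs was at 76.4 and 117 CPM in the controls and 78.7 and 112 in the swap libraries, but at 23.4 in the gg8tTA control and 15.4 in tetOP2. Omp was also apart, at 8311 and 8976 CPM against 2391 to 3889 CPM in the other 4. What separates the libraries was not tested. Between the gg8tTA control and tetOP2 there is no replicate, and intervals are exact Poisson ones of 95% for counting error only. Pcdh11x was at 14.3 CPM (11.9 to 17.2) in the gg8tTA control and 4.78 CPM (3.35 to 6.61) in tetOP2, and Pcdh17 at 201 CPM (191 to 211) and 139 CPM (131 to 148). Pcdh19 was at 69.8 CPM (64.2 to 75.9) and 100.3 CPM (93.3 to 108). Pcdh10 was at 284 CPM (273 to 296) and 225 CPM (215 to 236). In tetOP2 the chosen receptors were fewer, as given next, so these values come with another mix of receptors.

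Members differed from cell to cell within the mOSNs. With each cell thinned to 3000 UMIs, Pcdh10 was seen in 32.97% to 48.9% of mOSNs across the 6 libraries and in 0.508% to 1.28% of sustentacular cells, where its mean level was 4.13 CPM, at median depths of 11266 to 12717 and 12374 to 18338 UMIs before thinning. In control replicate 1, for example, 43.4% of 1046 mOSNs had a UMI (95% exact Clopper-Pearson interval 40.4 to 46.5), against 75.4% without thinning. Pcdh8 was seen in 9.2% to 18.9% of mOSNs against 0% to 0.5% of sustentacular cells, and Cdh15 in 11.7% to 21.8% against 0% to 0.6%. Pcdh17 was seen in 30.4% to 37.9% of mOSNs but also in 33.3% to 46.0% of sustentacular cells, so the 2 types share it. Cdh1 showed the reverse, in 0% to 1.4% of mOSNs and 43.3% to 65.0% of sustentacular cells, and Cdh26 likewise, in 1.7% to 3.8% and 56.7% to 75.1%.

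The counts per mOSN spread more than a Poisson count would for some members and not for others. The ratio of variance to mean of the thinned counts was 1.57 to 2.32 for Pcdh10, 1.33 to 2.06 for Pcdh17, 1.22 to 2.11 for Pcdh8 and 1.16 to 1.89 for Pcdh7, and 1.00 to 1.05 for Cdh2. Pairs of members were then read for how often they met in a cell, as the odds ratio of having a UMI of both in the thinned cells, a description that was chosen after the data were seen. Of 36 pairs, 3 were above 1 in all 6 libraries: Pcdh9 with Pcdh8 (1.14 to 2.30), Pcdh17 with Pcdh9 (1.01 to 1.75) and Pcdh19 with Cdh4 (1.05 to 1.34). The pairs below 1 in all 6 were Pcdh7 with Cdh15 (0.351 to 0.987) and Pcdh17 with Pcdh19 (0.685 to 0.985). Most of these 5 pairs came close to 1 in some library, and how many pairs would share a side by chance was not counted. Other pairs were further from 1 in single libraries. Pcdh19 with Pcdh9 (0.342 to 1.36) and Pcdh19 with Pcdh8 (0.247 to 1.04) were below 1 in 5 libraries and above it in tetOP2.

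Each mOSN expresses 1 olfactory receptor, and the chosen receptor was taken as the Olfr gene with the most UMIs, of at least 3. It could be called in 954, 1098, 635, 875, 586 and 630 mOSNs of control replicates 1 and 2, swap replicates 1 and 2, the gg8tTA control and tetOP2, over 525, 563, 331, 397, 401 and 214 receptors. The mean log level of a member per receptor in control replicate 1 was set against that in control replicate 2. Only 6 receptors had at least 5 cells in both, so the correlations at 36 receptors of at least 3 cells are given beside them, all as descriptions over receptors, which share their library. For Pcdh8 Pearson's r was 0.92 over 6 receptors and 0.72 over 36 (Spearman's rho 0.77 and 0.67). For Pcdh7 it was 0.69 and 0.83, for Pcdh9 0.64 and 0.76 and for Pcdh17 0.58 and 0.62. For Cdh4 it was 0.69 and 0.38. In Nqo1-negative control cells alone, over 25 receptors, r was 0.06 for Cdh4. There it was 0.65 for Pcdh8, 0.82 for Pcdh7, 0.64 for Pcdh9 and 0.54 for Pcdh17. These 5 members were named for the highest Pearson's r between the controls over 6 receptors, among members with at least 20 CPM. The 36 receptors include the cells of the 6, so the control values only describe the choice. The swap pair was not used in the choice. Members under this minimum were left out of the naming, whatever their r. Of these, Pcdh1 was at 0.84 over 6 receptors and 0.47 over 36 in the controls, and Pcdh11x at 0.85 over 36. In the swap pair, over 9 and 38 receptors, Pcdh1 was at 0.40 and -0.04 and Pcdh11x at 0.67 and 0.72. Between the swap libraries, over 9 and 38 receptors, r was 0.96 and 0.80 for Pcdh8, 0.56 and 0.72 for Pcdh7, 0.91 and 0.35 for Pcdh9 (Spearman's rho 0.38 and 0.40), 0.89 and 0.55 for Pcdh17 and 0.36 and 0.30 for Cdh4. Pcdh10 was at -0.46 and 0.17 in the controls and at 0.43 and 0.35 in the swap libraries, so over the larger receptor sets it was below Pcdh9 in the controls and about level with it in the swap pair. Pcdh19 was at -0.38 over 6 receptors and 0.63 over 36 in the controls, and at 0.65 and 0.67 in the swap libraries.

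**Figure D5:**
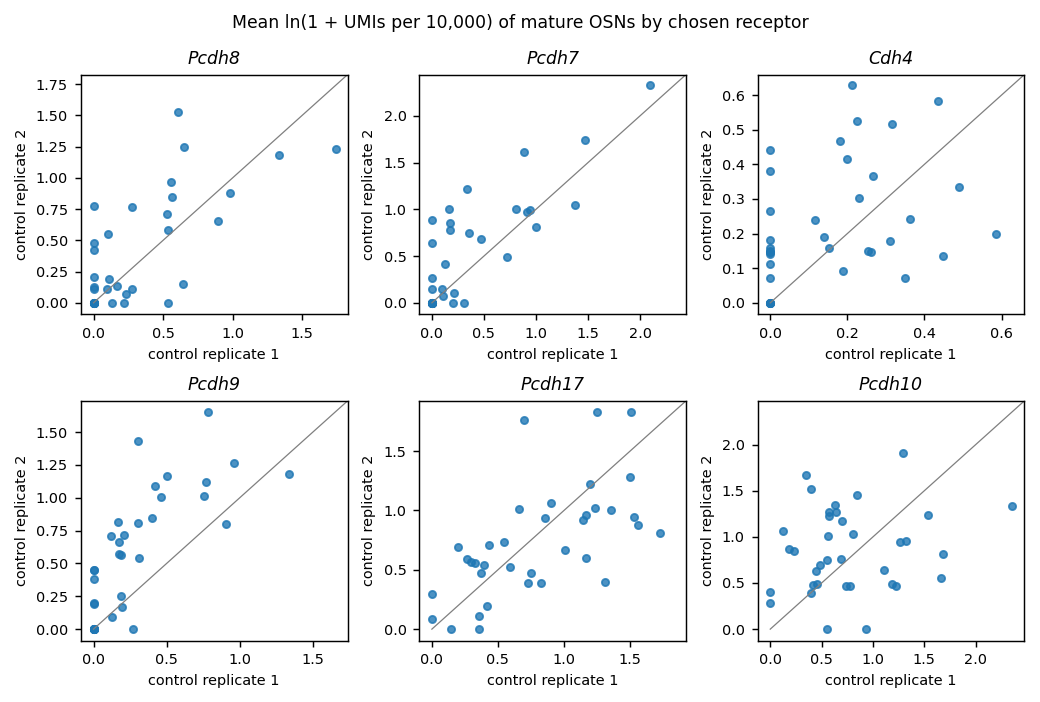
Mean natural log of 1 plus UMIs per 10000 for 36 receptors with at least 3 mOSNs in both controls, control replicate 1 on the horizontal and control replicate 2 on the vertical axis, 1 point per receptor, with a line of equality. Points of Pcdh7 and Pcdh9 run upward together (Pearson's r 0.83 and 0.76), and those of Pcdh10 do not (0.17).

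The size of these receptor differences was read in control replicate 2, with the receptors ranked in control replicate 1. Control replicate 2 had a part in naming the members below, other than Pcdh10 and Pcdh19. The values of the named members therefore describe that choice and are no independent reading. The 36 receptors were ordered by a member's level in control replicate 1, and the 12 highest and 12 lowest were compared in control replicate 2. CPM here are means over receptors of the mean CPM of single cells, not sums over cells. For Pcdh7, Pcdh8, Pcdh9 and Cdh4 the 12 lowest were all at 0 in control replicate 1, and ties were ordered by receptor name. Pcdh7 was at 307 CPM in the cells of the 12 highest and 18.1 CPM in those of the 12 lowest, Pcdh8 at 182 and 25.7 CPM and Pcdh9 at 229 and 20.01 CPM. Pcdh17 was at 260 and 68.0 CPM, Pcdh19 at 125 and 25.1 CPM and Cdh4 at 44.3 and 14.5 CPM. Pcdh10 was at 239 and 191 CPM, the smallest ratio of these 7, which restates its low correlation over the same receptors. The values rest on 171 cells in control replicate 2 and on receptors that were frequent enough to be chosen.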

How the data were processed

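The authors prepared 10x Genomics libraries, counted reads with Cell Ranger with introns included (build mm10 per the labels) and deposited raw UMI counts per gene and cell barcode for 6 libraries, 1 matrix per library with no pooling. How barcodes were called is not given in the sources used here. The strand setting of the counting is not given in the sources used here, so genes that overlap are uncertain.

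From these counts, barcodes under 1000 UMIs or 500 genes were dropped, and predicted doublets (2.07% to 4.07%, from simulated doublets among 50 nearest neighbors on 30 components of 2000 variable genes) were removed. Libraries shared 0 to 13 barcodes in pairs, at most 0.507% of the smaller. Cells were typed by fixed minimums of marker UMIs, and a cell that passed more than 1 gate was left out. No member is used in a gate. The driver of the Cre and 1 further motif are not reported here. UMIs were summed per library and type with at least 20 cells. Sums were tested with edgeR 4.0.16 (R 4.3.3; TMM, filterByExpr, quasi-likelihood test, Benjamini-Hochberg over all genes tested), with the library as a block except for swap against control. Types and steps came from 1 fit of all 6 libraries. An SE is the log2 change divided by the root of the F statistic. Nothing in the labels says whether a group's libraries were processed together, so p-values measure only the spread between these libraries.

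The members, gene lists and tests were chosen with earlier results of these data known. Named by rule were, per type, up to 3 members with the highest mean CPM among those called, per step up to 3 in each direction by adjusted p, for Nqo1 up to 6 in each direction, for swap the called members or the 3 with the smallest p, and for receptors the 5 with the highest correlation between controls among members with at least 20 CPM. Other members are named to account for all. Alternatives were DESeq2 1.42.0, RLE size factors, no filter, other cell and gate minimums, doublets kept and each library left out. Fits were tested on simulated counts. Python 3.11.15 with numpy 2.4.6, scipy 1.17.1, pandas 2.3.3 and scikit-learn 1.9.0 was used for the rest.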

Additional observations from a re-analysis of the deposited data

Results flagged for a closer look

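The Pcdh10 difference between Nqo1-positive and Nqo1-negative mOSNs was smaller in the swap than in the control libraries, by a test of that difference itself. The interaction was -0.456 on the log2 scale (SE 0.075, adjusted p = 0.0353 by the quasi-likelihood test of edgeR, adjusted over 11656 genes), which is under the size of 0.58 that a call needed. It was chosen for mention because its adjusted p was under 0.05, and no other of the 16 members tested was. The Pcdh10 difference was 0.04 in tetOP2, below both swap libraries, and 0.35 in the gg8tTA control, above them. Each was 1 library, tetOP2 with a forced receptor, and what separates these values was not tested.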

How the results depend on the processing

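Most counts of called members stayed within 1.5 times of the reported ones under every alternative run. For erythroid cells the 2 members called higher became 0 by DESeq2, 4 with gate minimums doubled, 6 with no filter on low counts and 0 to 2 with a library left out. For neutrophils the 2 became 1 by DESeq2 and 0 to 2 with a library left out, and for macrophages 0 became 1 with gate minimums doubled. The 43 calls over all lineage steps became 23 with gate minimums doubled, where too few globose basal cells were left for the first 2 steps to be fitted. With a library left out, the members higher from globose basal cell to precursor ranged from 2 to 5 and those lower from early to late immature OSN from 0 to 1. The 1 member lower from late immature OSN to mOSN became 2 by DESeq2, 2 with RLE size factors, 0 with no filter and 0 to 1 with a library left out. In the control libraries alone (both controls and the gg8tTA control) 1 member, Pcdh10, was higher in Nqo1-positive cells, and Cdh18 was called lower there, with no filter and without swap replicate 2, while with at least 3 Omp UMIs Cdh1 was called lower beside Cdh3 and Pcdh1. Over 54 values of single members and 572 alternatives, 538 kept their direction and side of the threshold, 28 lost their call, 5 (the unthinned shares of Pcdh7, Pcdh8, Pcdh9, Pcdh17 and Cdh4) moved, and 1 reversed: Cdh22 in swap against control, at -0.13 to 1.80 over the libraries left out, the lowest without swap replicate 1. The unthinned share of mOSNs with Pcdh10 was 71.1%. The median correlation of the 5 named members between the controls was 0.687 over 6 receptors and 0.502 in Nqo1-negative cells alone, over 5 receptors. At least 8 cells per receptor gave no value. Causes were not tested.

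The labels give both groups replicates 1 and 2 with no shared animal, batch or day stated. Deviations of same-numbered libraries correlated at 0.405 over 8068 genes, from 2 pairs only. With the replicate number as a block, 0 members were called in mOSNs, 0 within the Nqo1 classes and 1 in the other types (Cdh26 in neutrophils, 0 without the block). Depth limits the members under about 1 CPM.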
